A study of Mus musculus with 46 samples.

Results

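Collagen is folded, hydroxylated and trimmed by a small set of enzymes and chaperones, and 10 of their genes were followed here across single cells of the mouse cochlea: Serpinh1, P4ha1, P4ha2, P4hb, Plod1, Plod2, Fkbp10, Crtap, Bmp1 and Pcolce. They were chosen by symbol, and all 10 were found among the 29871 genes of the deposited expression table. Each was set, cell by cell, against collagen I, taken as the summed counts per 1000000 reads (CPM) of Col1a1 and Col1a2. The 46 samples are 46 cells, all of 1 labelled group: C57BL/6 mice at postnatal day 10, genotype Dio2creERt2:Ai6 and, per the labels' protocols, heterozygous for the Dio2 allele. Dio2 encodes the type 2 deiodinase, CreERt2 is a recombinase that acts after tamoxifen, and Ai6 is a green fluorescent reporter that Cre action switches on for good, so descendants of a marked cell glow too. The study set out to define the cochlear cell types that express Dio2. Cochleae were dissociated with papain, and fluorescent cells were picked by hand, so the cells describe what was picked and not the tissue. No animal is named for any cell, so there is no second sample, and every comparison between cells is a description by size, with no test.

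Fibrillar collagens are made in the endoplasmic reticulum (ER) as procollagen chains, which fold into a triple helix. Prolines of the chain are hydroxylated before folding, which stabilises the helix, and lysines are hydroxylated, which sets the sites of later cross-links and sugars. Dedicated chaperones hold the folded helix on its way out of the ER, and proteinases outside the cell remove the propeptides so that fibrils can form. In bone, where collagen I is the main protein of the matrix, inherited loss of several of these proteins causes brittle bones. The cochlea is encased in bone, and its spiral ligament and limbus are held by collagen-rich connective tissue.

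Reads in listed genes ran from 2522853 to 10350249 per cell, and 3351 to 7143 genes reached a CPM of 1. The cells fell into 6 clusters built without any gene of the lists used here, such as the 10 genes, the collagens and the markers. Cluster 1, with 14 cells, was osteoblast-like, since 8 of 9 osteoblast markers lay at least 2 log2 units above the other cells. Cluster 3, with 9 cells, was cochlear fibrocyte-like by 7 of 8 markers, and cluster 6, with 4 cells, was macrophage-like by 5 of 7. Clusters 2, 4 and 5, with 10, 5 and 4 cells, could not be named from the fixed markers and keep their numbers. Chondrocyte markers lay 2 log2 units above the other cells for 3 of 6 genes in cluster 2, 3 of 6 in cluster 3 and 4 of 6 in cluster 5, as did 4 of 6 general fibroblast markers in cluster 5, and their part in the results was not tested. Cluster and position in the numbering of the cells moved together, since cells 1 to 12 were all osteoblast-like and cells 43 to 46 were the macrophage-like ones, so the 2 cannot be told apart. The other osteoblast-like cells were cells 20 and 42. Single cells outside a class could hold its markers, and the 9 osteoblast markers summed to as much as 23624 CPM in a cell of cluster 2. Yet the median level outside the class was low, at 0.179% to 0.538% of the marker's mean for 14 abundant osteoblast and macrophage markers. The background limit of a gene was therefore put at 10 CPM or at 2% of its mean over all cells, whichever was higher, and this was set after the data were seen.

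The 2 chains of collagen I differed in how many cells held them. Col1a2 was above background in 41 of 46 cells, with a lowest value of 14.1, a median of 4025 and a highest value of 16762 CPM. Col1a1 passed its background limit in 15 of 46 cells, of which 10 were osteoblast-like, and its lowest, median and highest values were 2.78, 5.67 and 12801 CPM. In most cells the summed collagen I was therefore the Col1a2 value. Summed collagen I was 343 to 26614 CPM in osteoblast-like cells (median 7379), 1375 to 8119 in cluster 2 (median 4435) and 94.0 to 5319 in fibrocyte-like cells (median 855). In cluster 4 it was 199 to 10128 CPM (median 706), in cluster 5 it was 5875 to 7963 CPM (median 6199), and in macrophage-like cells it was 20.3 to 70.5 CPM (median 24.1).

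The 10 genes differed widely in level. Divided by exon length, so that genes can be compared, mean levels over 46 cells were highest for Serpinh1 at 568 ± 433 CPM per kilobase (SD, n = 46 cells) and P4hb at 269 ± 181. They were followed by Fkbp10 at 126 ± 116, Pcolce at 119 ± 256, Crtap at 92.2 ± 112, P4ha1 at 46.5 ± 40.2, Plod2 at 37.02 ± 53.7, Plod1 at 34.5 ± 44.4, Bmp1 at 20.1 ± 26.1 and P4ha2 at 4.56 ± 11.1 CPM per kilobase. Serpinh1 was above P4hb in 37 of 46 cells, and P4hb above Fkbp10 in 40 of 46. Every neighbouring pair in this order differed by less than the larger of its 2 SDs over cells. Plod2 and Plod1 were nearly even, with Plod2 the higher in 22 and Plod1 in 24 cells. Pooled over the 10 genes, few values lay between a high range and the background. P4hb did not share this split, with a lowest value of 46.8 CPM, and Serpinh1 was low only in the macrophage-like cells. Of 460 values of a gene in a cell, 319 were at 30 CPM or more and 128 were below 3 CPM, with 13 between these limits.

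**Figure D1:**
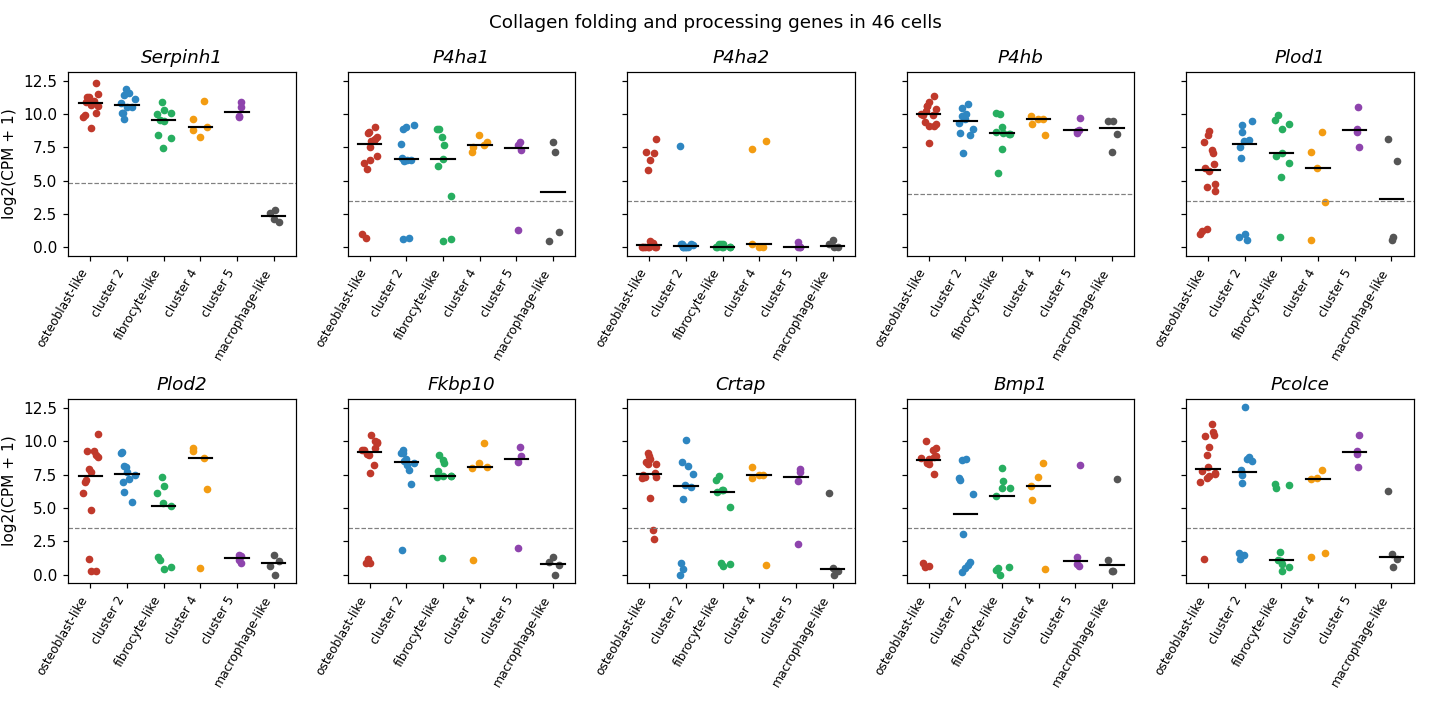
Level of each of the 10 genes, as log2(CPM + 1), in each of 46 cells (points), by cluster from osteoblast-like at the left to macrophage-like at the right; black bars are cluster medians and the dashed line is the background limit. Serpinh1 lay at 177 CPM or more in all cells outside the macrophage-like cluster and at 5.82 CPM or less inside it, while P4hb was above its limit in all 46 cells.

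Serpinh1 (NCBI Gene 12406, chromosome 7, 99345376 to 99353239, minus strand, GRCm38) encodes HSP47, the chaperone that binds the procollagen helix in the ER. Its lowest, median and highest values were 499, 1815 and 5179 CPM in osteoblast-like cells, and 809, 1667 and 3736 CPM in cluster 2. In fibrocyte-like cells they were 177, 746 and 1879 CPM. The 5 cells of cluster 4 had 2007, 525, 804, 317 and 449 CPM, and the 4 of cluster 5 had 1955, 917, 1480 and 863 CPM. The macrophage-like cells had 5.82, 4.84, 2.83 and 3.46 CPM, below the background limit of 27.8 CPM. Osteoblast-like and cluster 2 cells overlapped nearly throughout, and the macrophage-like cells overlapped with no other cell. Their Serpinh1 values at background went with collagen I values of at most 70.5 CPM.

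Collagen prolyl 4-hydroxylase, which hydroxylates the prolines, is built from catalytic alpha subunits, encoded by P4ha1 and P4ha2, and a beta subunit, encoded by P4hb. The beta subunit is protein disulfide isomerase, a general folding enzyme of the ER that also acts on other secreted proteins. P4hb was above background in all 46 cells. Its lowest, median and highest values were 223, 1009 and 2564 CPM in osteoblast-like cells, 135, 732 and 1746 in cluster 2, and 46.8, 374 and 1088 in fibrocyte-like cells. The macrophage-like cells had 701, 729, 360 and 144 CPM. All clusters overlapped for P4hb, and it was the only member above background in every cell. Per kilobase, P4hb exceeded the sum of P4ha1 and P4ha2 in 44 of 46 cells.

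P4ha1 was above background in 37 of 46 cells (80.4%, exact 95% interval 66.1% to 90.6%), with medians of 220 CPM in osteoblast-like, 96.7 in cluster 2 and 96.6 in fibrocyte-like cells. It was in all 5 cells of cluster 4 (138 to 337 CPM) and in 2 of the 4 macrophage-like cells, at 139 and 241 CPM. P4ha2 was found in far fewer cells, 8 of 46 (17.4%, 7.82% to 31.4%). Of these, 5 were osteoblast-like, with 275, 144, 131, 92.0 and 55.8 CPM, and these were the 5 osteoblast-like cells with the most collagen I. The other P4ha2 cells were 1 of cluster 2 at 194 CPM and 2 of cluster 4 at 245 and 169 CPM, whose collagen I was only 1406 and 365 CPM. Every cell with P4ha2 also had P4ha1, whereas 29 cells had P4ha1 alone and 9 had neither.

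Serpinh1 and P4hb were the pair of members whose levels went together most, with a Spearman rho of 0.60 over 46 cells and 0.61 over the 42 cells outside the macrophage-like cluster. Because of this their start regions are shown, 250 bases before the start of each gene from RefSeq (GRCm38.p6), 5′ to 3′ on the gene's strand, with GC boxes (GGGCGG, either strand) in capitals. Serpinh1 lies at chr7:99353240-99353489, minus strand, and P4hb at chr11:120573254-120573503, minus strand.
Serpinh1: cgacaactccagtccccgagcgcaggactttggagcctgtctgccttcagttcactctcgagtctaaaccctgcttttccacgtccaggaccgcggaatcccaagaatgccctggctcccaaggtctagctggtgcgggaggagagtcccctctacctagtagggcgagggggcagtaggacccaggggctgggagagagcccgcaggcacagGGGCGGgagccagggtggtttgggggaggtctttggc
P4hb: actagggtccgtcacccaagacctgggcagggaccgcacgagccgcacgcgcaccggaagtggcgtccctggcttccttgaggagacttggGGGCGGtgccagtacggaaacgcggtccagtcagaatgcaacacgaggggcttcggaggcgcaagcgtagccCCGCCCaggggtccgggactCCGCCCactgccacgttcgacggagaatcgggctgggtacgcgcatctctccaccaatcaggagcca
Serpinh1 had 1 GC box and P4hb had 3. RefSeq windows were matched for 7 of the 10 members, and 6 of those 7 held a GC box, against 32.7% of all 32851 windows of the same length. Those windows were not limited to genes expressed in these cells, so the shares are not of like sets. ACGTG was in 4 of 7 members against 16.6% of all windows, CCAAT in 1 of 7 against 33.8%, and TATAAA in 2 of 7 against 12.4%, on either strand and with no overlap of GC boxes and ACGTG in the windows shown. GAANNTTC was in 0 of 7 against 6.69%, and the ER stress element, a longer motif that begins with CCAAT, in 0 of 7 against 0.113%. These matches describe letters in the windows and no binding.

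Plod1 and Plod2 encode lysyl hydroxylases. Plod1 acts mainly on lysines of the helix, and Plod2 on those of the telopeptides, the short ends of the chain where cross-links of bone collagen form. Plod1 was above background in 35 cells and Plod2 in 30 of 46. In cluster 5 Plod1 was at 1450, 479, 180 and 406 CPM, while Plod2 was at 0.786, 1.16, 1.58 and 1.76 CPM in the same cells. Plod2 was thus at background in all 4 of these cells, although their collagen I was at least 5875 CPM. In cluster 2 Plod2 was above background in 10 of 10 cells (41.9 to 572 CPM, median 191) and Plod1 in 7 of 10 (median 216 CPM). Osteoblast-like cells had Plod2 in 11 of 14 (median 172 CPM, highest 1491) and Plod1 in 11 of 14 (median 56.1 CPM, highest 431). Fibrocyte-like cells had Plod2 in 5 of 9 (median 34.7 CPM, highest 159) and Plod1 in 8 of 9 (median 133 CPM, highest 985). Over all cells, 22 had both, 13 Plod1 alone, 8 Plod2 alone and 3 neither. Per kilobase, Plod1 exceeded Plod2 in 5 of 14 osteoblast-like cells and in 4 of 10 cells of cluster 2. It did so in 7 of 9 fibrocyte-like cells, in 1 of 5 cells of cluster 4, in 4 of 4 of cluster 5 and in 3 of 4 macrophage-like cells. Their Spearman rho was -0.20 over 46 cells and -0.30 outside the macrophage-like cluster.

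Fkbp10 encodes FKBP65, a prolyl isomerase of the ER whose loss causes brittle bones with joint contractures. It was above background in 35 of 46 cells (76.1%, 61.2% to 87.4%) and in none of the macrophage-like cells, which had 1.51 CPM or less. Lowest, median and highest values were 0.792, 586 and 1442 CPM in osteoblast-like cells, 2.65, 355 and 638 CPM in cluster 2 and 1.36, 168 and 497 CPM in fibrocyte-like cells. These clusters held 3 of 14, 1 of 10 and 1 of 9 cells at background. Their cells above background also overlapped, at 197 to 1442 CPM in osteoblast-like cells, 112 to 638 CPM in cluster 2 and 162 to 497 CPM in fibrocyte-like cells. The exons of Fkbp10 overlap those of Nt5c3b on the opposite strand. Since the use of strand in counting is not given in the sources used here, reads of the 2 genes cannot be told apart there. Nt5c3b was also the gene whose level went most with that of Fkbp10 (rho 0.63), and 34 cells were above background for both, with 4 for Nt5c3b alone and 1 for Fkbp10 alone. The rho of Nt5c3b itself with collagen I was 0.31, below the 0.61 of Fkbp10. Exons of Plod2 and Pcolce also overlap other annotated genes. Of these, Fbxo24, which overlaps Pcolce, was above background in 1 cell.

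Crtap encodes cartilage-associated protein, which forms a complex with the prolyl 3-hydroxylase P3h1 and the isomerase Ppib. It was above background in 33 of 46 cells, with medians of 185 CPM in osteoblast-like (12 of 14), 99.9 in cluster 2 (7 of 10) and 72.6 in fibrocyte-like cells (6 of 9). The 4 macrophage-like cells had 0, 69.9, 0.202 and 0.432 CPM. Its highest value, 1109 CPM, was in cell 38 of cluster 2, which also had the highest value of Pcolce.

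Bmp1 and Pcolce act outside the cell. Bmp1 is the proteinase that removes the C-terminal propeptide of procollagen, and Pcolce is the protein that enhances this cleavage. Bmp1 was above background in 11 of 14 osteoblast-like cells, with a median of 379 and a highest value of 1042 CPM. It was above background in 5 of 10 cluster 2 cells (median 35.3 CPM, highest 411), 5 of 9 fibrocyte-like cells (median 58.9, highest 253) and 1 of 4 in both cluster 5 and the macrophage-like cluster. In cluster 4 it was above background in 4 of 5 cells (median 101 CPM, highest 326). Pcolce was above background in 13 of 14 osteoblast-like cells (median 240 CPM, highest 2504) and in 3 of 9 fibrocyte-like cells (median 1.16 CPM, highest 109). In cluster 2 it was found in 7 of 10 cells, from 1.22 to 5940 CPM with a median of 205. In cluster 5 all 4 cells had it, at 271, 527, 1448 and 621 CPM, without overlap with the fibrocyte-like cells.

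The levels were then set against summed collagen I per cell. All 10 members had a Spearman rho above 0 over the 46 cells. So did 6108 of the 11445 genes that reached 1 CPM in 5 or more cells, collagen I left out. The median rho was 0.38 over the members and 0.01 over these genes. A rho of at least 0.5 was reached by 3 of the 10, against 0.384% of all genes. The 3 were Serpinh1 at 0.72 (Pearson's r of the log2 values 0.86), Pcolce at 0.62 (r = 0.51) and Fkbp10 at 0.61 (r = 0.55). Serpinh1 ranked 3 among the 11445 genes, behind the collagen gene Col11a1 and Ckap4. Pcolce ranked 7 and Fkbp10 ranked 8. Below them stood P4hb at 0.45, Bmp1 at 0.44, Crtap at 0.32 and Plod2 at 0.32. The lowest were P4ha2 at 0.24, P4ha1 at 0.16 and Plod1 at 0.16, so the catalytic subunit P4ha1 and the helix lysyl hydroxylase Plod1 followed collagen I least. The 46 points share a library type and a common total per cell, come from an unknown number of animals and fall into clusters. Summed collagen I also fell with position in the numbering of the cells, at a rho of -0.61 over 46 cells. Within osteoblast-like, cluster 2 and fibrocyte-like cells that rho was -0.34, 0.27 and 0.20. The part of this position in the values of the members was not tested. All these values are therefore descriptions.

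**Figure D2:**
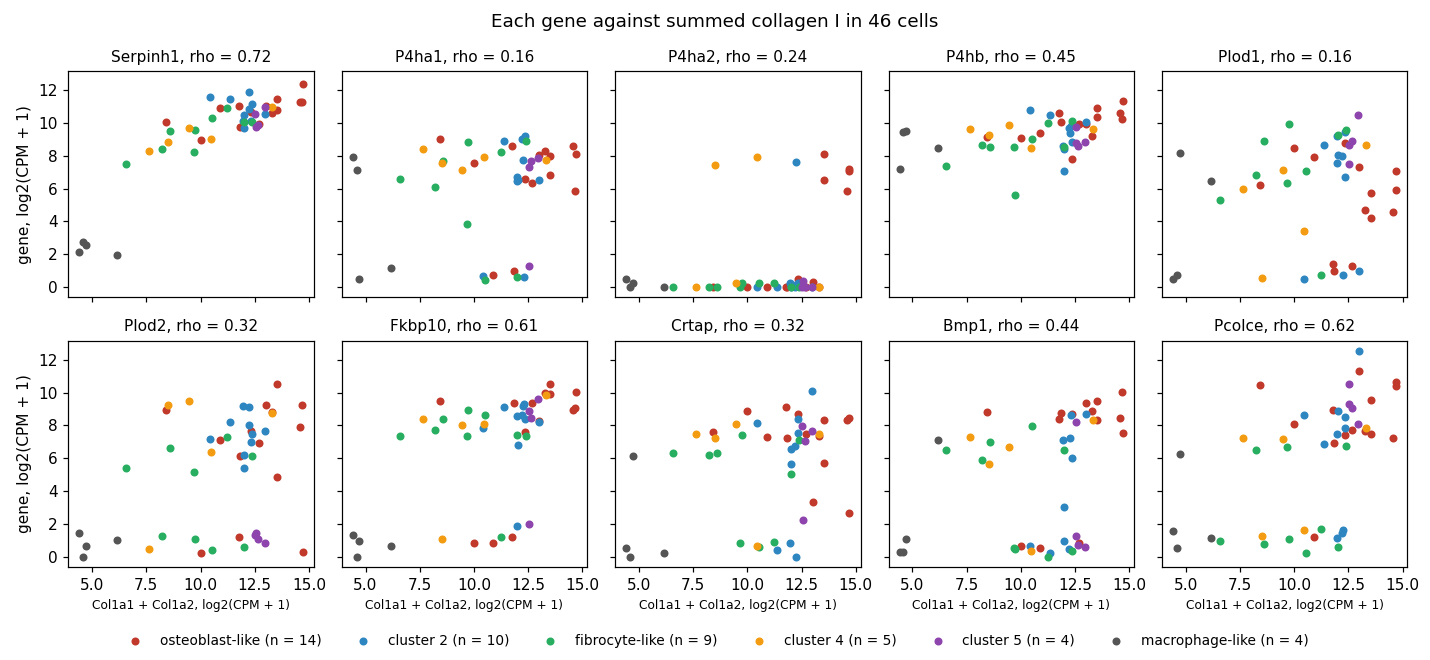
Each of the 10 genes (vertical axis) against summed Col1a1 and Col1a2 (horizontal axis), both as log2(CPM + 1), in 46 cells coloured by cluster, with Spearman's rho above each panel. Serpinh1 was at 5.82 CPM or less in the 4 macrophage-like cells and at 177 CPM or more in the other 42. Its rho was 0.72 over all cells and 0.64 over these 42. P4ha1, Plod1 and Plod2 took both high and background values over much of the range of collagen I.

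**Figure D3:**
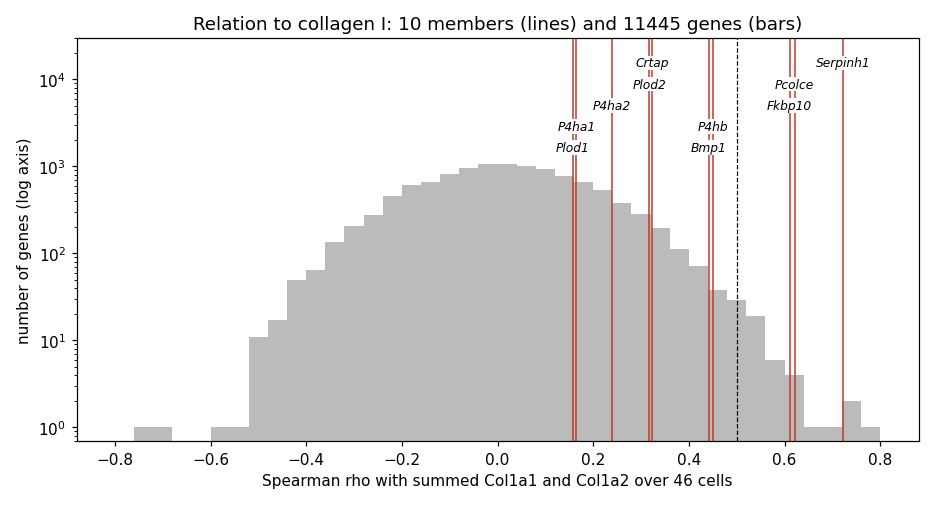
Spearman's rho with summed Col1a1 and Col1a2 over 46 cells for 11445 genes (grey bars, log axis of gene number), with the 10 members as red lines and a dashed line at 0.5. All members lay above 0, from 0.16 for Plod1 to 0.72 for Serpinh1, as did 6108 of the 11445 genes.

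The macrophage-like cells were low in collagen I and in most members. In the 42 other cells the rho was 0.64 for Serpinh1, 0.56 for Pcolce, 0.51 for Fkbp10 and 0.43 for P4hb, and the median of the members was 0.34. The limit of 0.5 was again reached by 3 of 10 members, against 0.402% of genes. When only cells with the gene above background were used, the values were 0.64 for Serpinh1, 0.55 for Bmp1, 0.51 for Fkbp10 and 0.50 for Pcolce, whereas P4ha1 was at 0.05 and Plod1 at -0.04. P4ha2 was the lowest, at -0.60 over its 8 cells, against 0.24 over all 46. With Col1a1 alone as the measure, Bmp1 (0.58) and P4hb (0.52) had the highest values, Serpinh1 had 0.49 and Plod1 had -0.39. Col1a1 was above background in only 15 of 46 cells, so these values rest in large part on the order of background values.

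Values within clusters rest on few cells. In the 14 osteoblast-like cells, rho was 0.81 for P4ha2, 0.69 for P4hb, 0.69 for Serpinh1 and 0.55 for Fkbp10, so 4 of 10 members reached 0.5, against 5.32% of genes. The value of P4ha2 rests on 5 cells above background. The other osteoblast-like values were 0.31 for Bmp1, 0.22 for Pcolce, 0.19 for Plod2, 0.06 for P4ha1, -0.17 for Plod1 and -0.31 for Crtap. In the 10 cells of cluster 2, Bmp1 at 0.70 was the only member at 0.5 or more (1 of 10, against 6.84% of genes), and Serpinh1 was at -0.16. Among the 9 fibrocyte-like cells, Serpinh1 at 0.80 was the only one (1 of 10, against 4.78% of genes), followed by P4hb at 0.47 and Plod1 at 0.42. Among them the cell with the most collagen I (5319 CPM) had 1036 CPM of Serpinh1, and the cell with the least (94.0 CPM) had 177 CPM. The number of genes detected per cell also moved with collagen I inside clusters, with a rho of 0.51 in osteoblast-like and -0.85 in fibrocyte-like cells, against 0.05 over all 46. The part of genes detected in the values within clusters was not tested. Over all 46 cells the rho of Serpinh1 given the number of genes detected was 0.72. Since that number hardly moved with collagen I over all 46 cells, this value cannot speak to those within clusters.

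Relative to collagen I, Serpinh1 and P4hb were most abundant in the clusters with the lower collagen I medians. Over the 41 cells with at least 100 CPM of collagen I, which include no macrophage-like cell, Serpinh1 had a median of 31.4 CPM per 100 CPM of collagen I, with a range from 9.35 to 314. The median was 24.04 in osteoblast-like cells, 36.6 in cluster 2, 81.0 in fibrocyte-like cells, 114 in cluster 4 and 19.5 in cluster 5. P4hb had a median of 14.9 over the 41 cells, with 13.4 in osteoblast-like, 13.2 in cluster 2, 38.9 in fibrocyte-like, 134 in cluster 4 and 6.59 in cluster 5 cells. Both ratios have collagen I below the line, so a high ratio in cells of low collagen I is in part given by how the ratio is made. The highest Serpinh1 ratio, 314, was that of osteoblast-like cell 42, which had 1078 CPM of Serpinh1 with 343 CPM of collagen I.

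Between clusters, mean log2(CPM + 1) was compared by size, with a difference of 1 as the limit. Osteoblast-like cells had 4 of 10 members higher than cluster 2, against 26.1% of all 11447 genes, and 1 lower, against 15.9%. The median difference over the members was 0.52, against 0.23 over all genes. Bmp1 averaged 7.05 ± 3.50 in osteoblast-like and 4.31 ± 3.56 in cluster 2 cells (SD, n = 14 and 10), a difference of 2.75, against a pooled SD of 3.52. Crtap (1.73), Pcolce (1.72) and P4ha2 (1.68) also stayed within their pooled SD of 2.80, 3.11 and 3.05, and Plod2 differed by -1.17 with an SD of 2.76. Serpinh1 differed by only -0.05. The sign of Plod2 depended on how the cells were clustered: the difference was 0.64 with 5 clusters, 0.72 with 5000 variable genes and 1.79 with average linkage. The group compared was then no longer cluster 2 alone. It held the 14 cells of clusters 2 and 5 with 5 clusters. In the other settings it had 16 and 19 cells, and cluster 3 was matched to it too.

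Against the fibrocyte-like cells, osteoblast-like cells had 7 of 10 members higher, against 27.9% of genes, and 1 lower, against 17.4%. The median difference was 1.94 over the members and 0.26 over all genes. Pcolce averaged 8.22 ± 2.50 in osteoblast-like and 2.82 ± 2.90 in fibrocyte-like cells (SD, n = 14 and 9), and its difference of 5.39 exceeded its pooled SD of 2.66 and lay at the 99.5 percentile of all genes. Serpinh1, P4hb and Crtap also differed by more than their pooled SD, by 1.35 (SD 0.95), 1.42 (SD 1.11) and 2.65 (SD 2.36) in that order; Bmp1, P4ha2 and Plod2 did not. Plod1 was the lower one, at -1.78 with an SD of 2.73. Under other settings the lowest differences of Serpinh1 (0.72), Plod2 (0.72) and P4ha2 (0.15) fell below the limit. The highest differences of P4ha1 (1.31) and Fkbp10 (1.79) rose above it. In 2 of these settings, 5000 variable genes and average linkage, clusters 2 and 3 were matched to the same group, of 16 and 19 cells. Those settings had no separate fibrocyte-like group, and Plod2 differed by 0.72 in the first of them. Against the macrophage-like cells all 10 members were higher in osteoblast-like cells, against 35% of genes, led by Serpinh1 (8.37), Fkbp10 (6.78), Pcolce (5.83) and Plod2 (5.60). P4hb (1.24) and Plod1 (1.35) differed least. P4ha1 (2.51, pooled SD 2.92), P4ha2 (2.34, SD 3.11) and Plod1 (SD 2.91) lay within their pooled SD, and the difference fell below the limit for P4ha2 between medians (0.02) and for Plod1 with a pseudocount of 10 (0.58). No member was lower, against 22.3% of genes. Counted genes had to reach 1 CPM in 5 or more cells, and the macrophage-like cluster has 4. Genes found in that cluster alone are therefore missing from both shares, and the macrophage markers Ptprc and Aif1 were not counted.

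The members were found together in most cells without forming 1 block. Between 2 and 10 of the 10 were above background per cell, with a median of 7. All 10 were above background in 4 cells, which were osteoblast-like cells 4, 5, 6 and 9, and medians per cluster were 8.5 in osteoblast-like, 7.5 in cluster 2, 7 in fibrocyte-like, 8 in cluster 4, 7 in cluster 5 and 2.5 in macrophage-like cells. This number went with collagen I (rho 0.54) and as much with the number of genes detected in the cell (rho 0.58), whose part in it was not tested. Within osteoblast-like, cluster 2 and fibrocyte-like cells its rho with collagen I was 0.66, 0.71 and -0.49. With genes detected it was 0.68, 0.64 and 0.65. Of 45 pairs of members, 39 had a rho above 0, with a median of 0.22. Over all pairs of the 11447 genes, not matched to the members in level, 53.1% had a rho above 0 and the median was 0.01. After Serpinh1 with P4hb, the highest were Crtap with Pcolce (0.51), Serpinh1 with Fkbp10 (0.495) and Serpinh1 with Pcolce (0.46). Plod1 stood apart, with the lowest value of all pairs against P4hb (-0.36) and values below 0 against P4ha2 (-0.21), Plod2 (-0.20) and Bmp1 (-0.17).

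**Figure D4:**
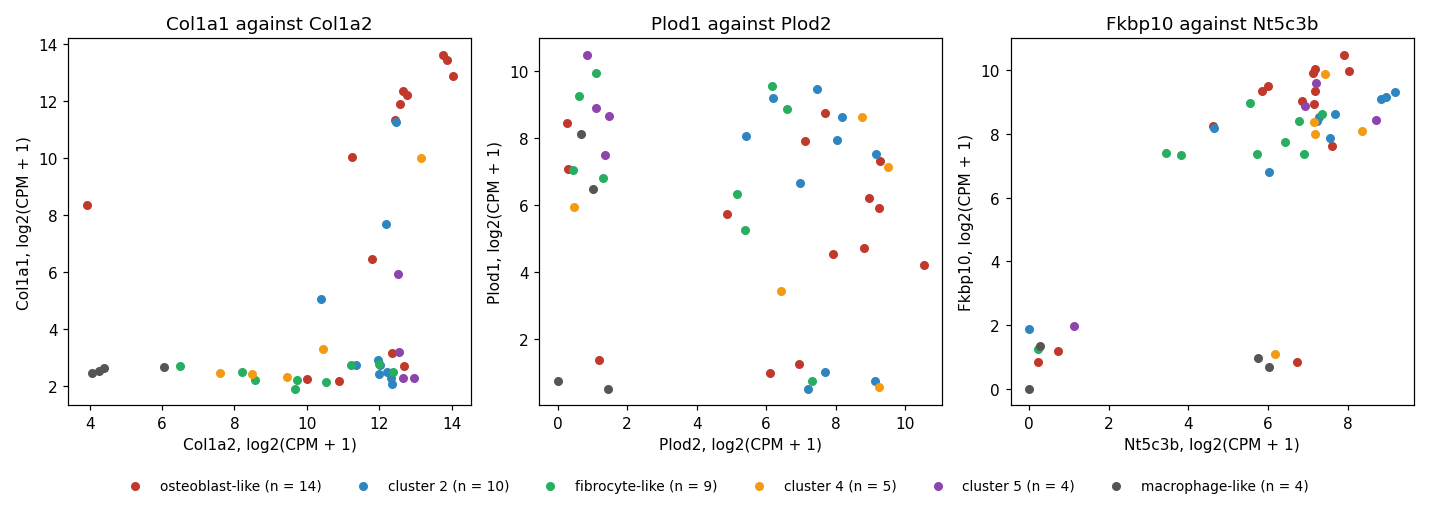
Pairs of genes in 46 cells as log2(CPM + 1), coloured by cluster: Col1a1 against Col1a2 (left), Plod1 against Plod2 (middle) and Fkbp10 against Nt5c3b, which overlaps it on the opposite strand (right). Col1a1 was above background in 15 cells and Col1a2 in 41, Plod1 and Plod2 were both above background in 22 cells, and Fkbp10 and Nt5c3b in 34.

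Other genes of the pathway were set against collagen I in the same way. Of 18 further modifying and trimming enzymes, 14 reached 1 CPM in 5 or more cells, with a median rho of 0.18, and 1 of them reached 0.5. That was Fkbp7 (0.52), which encodes another ER isomerase. Adamts2, the proteinase that removes the N-terminal propeptide, had 0.45, and P3h1, the partner of Crtap, had 0.43 at a median of 6.25 CPM. P3h4 had 0.38, whereas P4ha3 and P3h2 had -0.11 and -0.34. Of the 4 lysyl oxidase genes that did so, whose enzymes form the cross-links, none reached 0.5. Lox had 0.35, Loxl2 0.18, Loxl1 0.10 and Loxl3 0.01. Among 17 genes of procollagen export, Sec31a (0.57), a coat protein of the vesicles that leave the ER, and Creb3l1 (0.52), a transcription factor of collagen-secreting cells, reached 0.5, and the median was 0.21. General ER folding genes had a median of 0.02 over 22 genes and none at 0.5, with Sec61a1 (0.37) the highest and Atf6 (-0.33) the lowest. The 8 widely used genes had a median of -0.02, from 0.14 for Eef1a1 to -0.25 for Gapdh. Of the 6 other fibrillar collagen genes measured, 4 reached 0.5, with Col11a1 at 0.79 and Col5a2 at 0.69. Differences between these lists were not tested.

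The genes whose pattern was most like that of the members were found among 4495 genes that reached 1 CPM in 20 or more cells, by Spearman's rho over 46 cells. For the mean of the 10 members they were Ckap4 (0.73), Bgn (0.70) and Tpm1 (0.69). For Serpinh1 they were Col1a2 (0.69), Eef1g (0.66) and Dapk2 (0.62), and for P4hb Tmsb10 (0.57), Anxa2 (0.56) and Tpm1 (0.56). Those of P4ha1 were Fam114a1 (0.54), Arhgap5 (0.54) and Tmem167b (0.52), and those of P4ha2 were Dhx15 (0.56), Etf1 (0.49) and Nt5dc2 (0.49). Plod1 was most like Col9a1 (0.55), Slco1c1 (0.53) and Serpine2 (0.52), and Plod2 was most like Ptk7 (0.64), Dapk2 (0.62) and Lox (0.61). After Nt5c3b, Fkbp10 was most like Col1a2 (0.59) and Tpm1 (0.58). Crtap was most like Cxx1a (0.55), Ccnd3 (0.53) and Arhgef40 (0.53). Bmp1 was most like Tle2 (0.64), Ptprs (0.62) and Sec31a (0.62), and Pcolce was most like Nupr1 (0.66), Bgn (0.60) and Rcn3 (0.59).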

How the data were processed

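The deposited table holds CPM, named so in the file headers by the authors, for 29871 genes in 46 single cells from full-length cDNA libraries (SMART-Seq v4 and ThruPLEX, per the labels' protocols). bcl2fastq 2, STAR 2.7.3a, GRCm38 and mm10 are named in the submitters' processing notes; no source used here names the counting program, the annotation or whether strand was used. Every nonzero value (100%) was a whole number of steps to within 0.01 read, so read numbers were recovered. There is 1 labelled group, so no count test was possible. Exact Clopper-Pearson intervals on shares of cells cover counting error only and take the picked cells as independent, although the number of animals is unknown. No 2 of the 1035 pairs of cells held identical values.

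Clusters used log2(CPM + 1) of the 2000 most variable genes, 10 principal components and Ward linkage, cut at 2 to 6 by silhouette (scikit-learn 1.9.0, scipy 1.17.1, Python 3.11.15). Exon lengths are those of all exons annotated for a gene in GENCODE M21, with overlaps counted once, and not those of a single transcript. The pseudocount of 1 understates differences of low genes. Steps were tested on simulated data. Those counts were drawn around each gene's mean without the split between high and background values, so they cannot speak to data with that split. Genes named beyond the members are the highest and lowest by rho in each list and the 3 most alike per pattern. The members and lists were chosen with earlier results of these data known.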

Additional observations from a re-analysis of the deposited data

How the results depend on the processing

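The median rho of the members with collagen I kept its sign under 14 other settings of measure, scale, depth and cells, and ranged from 0.31 (all fibrillar chains) to 0.41 (without cells 20 and 42), and 2 to 4 members reached 0.5. Single members changed sign. Plod1, at 0.16, was at -0.39 with Col1a1 alone, which was above background in only 15 of 46 cells. It was at -0.04 in cells above background and -0.09 in cells at a CPM of at least 1. P4ha2, at 0.24, was at -0.60 in both of these kinds of set, of 8 cells each. With each of the 46 cells left out in turn, the median rho ran from 0.344 to 0.411 and the number at 0.5 or more stayed at 3. With reads thinned to 3000000 in 43 cells the median was 0.38, and given the number of genes detected, an alternative chosen after seeing the data, it was also 0.38. That number had a rho of only 0.05 with collagen I over 46 cells, so the last value could change little. The share of all genes at a rho of at least 0.5 was 0.25% with 18031 genes, those with at least 1 read in 1 cell, and 0.64% with 5004 genes, those detected in at least 20 cells. Comparisons of osteoblast-like cells with cluster 2 were the least stable. Members higher numbered 2 in place of 4 with a pseudocount of 10 and with medians. Members lower numbered 2 with 7 clusters and 3 with 1000 variable genes, and 0 with a pseudocount of 10, with thinned reads and without Fkbp10, Pcolce and Plod2 (chosen after seeing the data), in place of 1. Plod2 turned from -1.17 to 0.64 with 5 clusters, 0.72 with 5000 variable genes and 1.79 with average linkage. In none of these was the group compared cluster 2 alone. With 5 clusters it held the 14 cells of clusters 2 and 5, and Plod2 was at background in all 4 cells of cluster 5. In the last 2 settings clusters 2 and 3 were matched to the same group, of 16 and 19 cells. The cause of the other shifts was not tested. No paired analysis was possible because there is 1 group. Genes at background in a cell may be present below what 1 picked cell at this depth can show.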

Other observations

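Single cells departed from the general pattern. Osteoblast-like cell 42 had Col1a1 at 329 CPM with Col1a2 at 14.1 CPM, the lowest Col1a2 value of all cells, while Serpinh1 (1078 CPM), Pcolce (1406 CPM), Fkbp10 (728 CPM) and P4ha1 (511 CPM) were high. Its summed collagen I of 343 CPM was the lowest of its cluster, and 9 of the 10 members were above background in it. Cell 38 of cluster 2 had Col1a1 at 2498 CPM, Pcolce at 5940 CPM and Crtap at 1109 CPM, the highest values of cluster 2 for Col1a1 and of all cells for the other genes, although only 3448 genes were detected in it. Osteoblast-like cells 1, 3, 12 and 20 had Col1a1 at 3.76, 5.58, 7.99 and 3.56 CPM with Col1a2 at 1018, 6552, 5202 and 1906 CPM.

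Ckap4, which encodes an ER membrane protein, had a higher Spearman rho with collagen I over 46 cells than the 10 members, at 0.74, although its Pearson's r of 0.65 was below the 0.86 of Serpinh1. Its rho was 0.85, 0.64 and 0.03 in osteoblast-like, cluster 2 and fibrocyte-like cells. Rcn3, which encodes a calcium-binding ER protein, had a rho of 0.67 over 46 cells. Both were picked out here after their values were seen.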
